A study of Mus musculus with 10 samples.

Results

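Serpins are a superfamily of proteins with a common fold, and most of them inhibit proteases. The protease cuts an exposed loop of the serpin, the loop inserts into the body of the inhibitor, and both proteins stay locked in a covalent complex. Clade A and the plasma serpins of clades C, D, F and G are secreted, largely by the liver, and control blood clotting, fibrinolysis, complement and neutrophil elastase. Clade B serpins stay mostly inside the cell and guard it against its own or incoming proteases. Some members inhibit no protease, and act as hormone carriers, as a collagen chaperone or as extracellular signals. In the lung the best known is α1-antitrypsin, the plasma inhibitor of neutrophil elastase whose deficiency leads to emphysema.

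The serpins were taken as the genes of the array with a symbol that starts with *Serpin* and a clade letter, each read by a probe set that names 1 gene. This gave 39 of the 17813 genes measured, 1 of them a pseudogene (*Serpina4-ps1*), with 1 probe set each. They comprised 14 genes of clade A, 17 of clade B, 2 each of clades F and I, and 1 each of clades C, D, G and H. The RefSeq gene table lists 69 mouse serpin genes and pseudogenes; the others were not analysed here.

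Expression was measured on 5 Affymetrix microarrays of lung tip cells at E17.5 and 5 at E11.5. At E17.5, GFP+ cells were collected by flow cytometry after lungs of *Id2-CreER; Rosa26R-fGFP* embryos had been dissociated with trypsin; the mothers had received 150 µg tamoxifen per gram body weight at E16.5. In such embryos tamoxifen switches on a heritable GFP in cells that express *Id2*, so that a small number of the immediate progeny of the tips was collected too. The E11.5 tips carry the same genotype label, with tamoxifen named for E17.5 only, and were microdissected by hand after dispase. Effects of stage, tamoxifen and isolation cannot be told apart here. The arrays of a stage are labelled as biological replicates, but no source used here says whether they came from separate litters, and p-values measure only the spread between them. Values are log2 signals as deposited. Differences between stages were tested in limma, with p-values adjusted by Benjamini-Hochberg over all genes and a threshold of 0.05 for a call.

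The mean log2 signal of 18 pan-epithelial markers was 12.03 to 12.33 on the E17.5 arrays, against 11.44 to 11.67 on the E11.5 arrays. Of these 18, 10 were called higher and 5 lower at E17.5. Of 14 alveolar type 2 markers 12 were higher and 2 lower, and of 12 alveolar type 1 markers 11 were higher and 1 lower. Of 10 bronchiolar secretory markers 8 were higher and 1 lower, and of 11 tip progenitor markers 5 were higher and 4 lower. Markers of other cell types differed between the stages as well, in both directions. Those called higher at E17.5 were 15 of 16 endothelial, 17 of 20 macrophage and monocyte, 7 of 10 T and NK cell and 7 of 10 mast cell markers. Over all genes 36.9% were called higher and 31.5% lower. The mean over 16 endothelial markers was 8.54 to 10.43 at E17.5, against 5.29 to 6.25 at E11.5, and that over 20 macrophage and monocyte markers was 8.62 to 9.51 at E17.5, against 5.57 to 6.32 at E11.5. The means were likewise higher at E17.5 for 10 T and NK cell markers (6.20 to 7.69 at E17.5, 4.38 to 4.69 at E11.5) and 10 mast cell and basophil markers (6.51 to 7.41 and 4.95 to 5.20). Of 8 erythroid markers 1 was higher and 5 were lower at E17.5. Their mean was 5.12 to 5.79 at E17.5, against 7.11 to 8.35 at E11.5. Of 10 smooth muscle and pericyte markers 4 were higher and 5 lower. The 17 hepatocyte markers (4 higher and 3 lower at E17.5) were split within a stage. Their mean was 7.24 and 7.83 on E17.5 replicates 4 and 5, against 5.56 to 5.79 on E17.5 replicates 1 to 3 and 5.63 to 5.85 on the E11.5 arrays. In such bulk samples fewer cells of a type and less RNA per cell cannot be told apart.

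The regions upstream of 3 serpin genes show the members on which the results below turn. *Serpina1b* and *Serpina1c* encode α1-antitrypsin in the mouse, whose gene is present in several near-identical copies, and both were split within the E17.5 arrays. *Serpinb8* had the smallest p-value of all serpins. The 250 bases before the start site are given 5′ to 3′ on the gene's strand, from the RefSeq table of build GRCm38.p6, at chr12:103738190-103738439 (minus strand, *Serpina1b*), chr12:103904951-103905200 (minus strand, *Serpina1c*) and chr1:107589756-107590005 (plus strand, *Serpinb8*). Capitals mark matches to TTGCNNAA or TTNNGCAA, the 2 orientations of a C/EBP motif, to the HNF1 element GTTAAT and, in *Serpinb8* only, to the glucocorticoid receptor motif ACANNNTGT.
Serpina1b: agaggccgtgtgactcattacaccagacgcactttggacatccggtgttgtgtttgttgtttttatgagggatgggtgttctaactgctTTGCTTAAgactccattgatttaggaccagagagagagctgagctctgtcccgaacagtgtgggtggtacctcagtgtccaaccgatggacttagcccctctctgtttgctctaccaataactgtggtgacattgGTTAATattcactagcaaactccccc
Serpina1c: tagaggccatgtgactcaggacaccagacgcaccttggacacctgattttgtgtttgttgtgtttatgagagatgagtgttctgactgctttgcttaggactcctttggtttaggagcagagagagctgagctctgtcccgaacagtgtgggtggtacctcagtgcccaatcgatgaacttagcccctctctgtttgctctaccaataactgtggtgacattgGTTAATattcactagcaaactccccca
Serpinb8: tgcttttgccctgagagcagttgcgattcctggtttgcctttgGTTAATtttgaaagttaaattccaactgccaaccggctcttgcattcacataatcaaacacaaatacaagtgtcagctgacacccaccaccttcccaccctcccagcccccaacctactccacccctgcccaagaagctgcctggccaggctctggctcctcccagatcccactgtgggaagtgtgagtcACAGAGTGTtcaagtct
The *Serpina1b* and *Serpina1c* windows were identical at 229 of 252 aligned positions (90.9%). Both hold GTTAAT, at base -26 in *Serpina1b* and -27 in *Serpina1c* counted from the start site, and only the *Serpina1b* window also holds the C/EBP motif, at base -161. HNF1 and C/EBP are transcription factors of the hepatocyte, but C/EBP factors are not confined to it. The paper found nuclear CEBPA, a C/EBP factor, in some distal tip progenitors from E16.5 and in bronchioles from E17.5. The HNF1 element was chosen after the values were seen, and a match is a description of letters only.

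In E17.5 tips, 14 of the 39 serpins were higher and 3 lower than in E11.5 tips, while 22 did not pass the test. The share called over all genes was 36.9% higher and 31.5% lower, so that the count of higher serpins lay near the background and that of lower serpins below it. At least a 2-fold change was called for 7 serpins, all higher at E17.5, beside 24.2% of all genes that were higher and 16.3% that were lower by as much. The arrays of the stages did not overlap for 11 serpins higher and 1 serpin lower at E17.5, beside 58.6% of all genes. The median log2 fold change was 0.20 over the serpins and 0.03 over all genes. Each array was also centred on its median, which moved the median over all genes to -0.10. After this 10 serpins were higher and 5 lower, beside 5920 and 6576 of all 17813 genes. With quantile normalization 12 serpins were higher and 2 lower, beside 5676 and 6949 of all genes.

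Many serpins gave little signal in these cells. At both stages 22 of the 39 were among the lowest 25% of all genes by mean log2 signal, as did 20.3% of all genes. These 22 included the 3 serpins that were lower at E17.5, *Serpinb12* (log2 fold change -0.54), *Serpina1f* (-0.26) and *Serpinb9g* (-0.18), and also 4 that were higher. The deposited table carries no detection call, so whether these probe sets measured RNA above background was not tested. *Serpina1f* and *Serpinb9g* lost the call when any of several single arrays was left out, and without E17.5 replicate 2 *Serpinb12* was the 1 serpin still called lower.

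**Figure D1:**
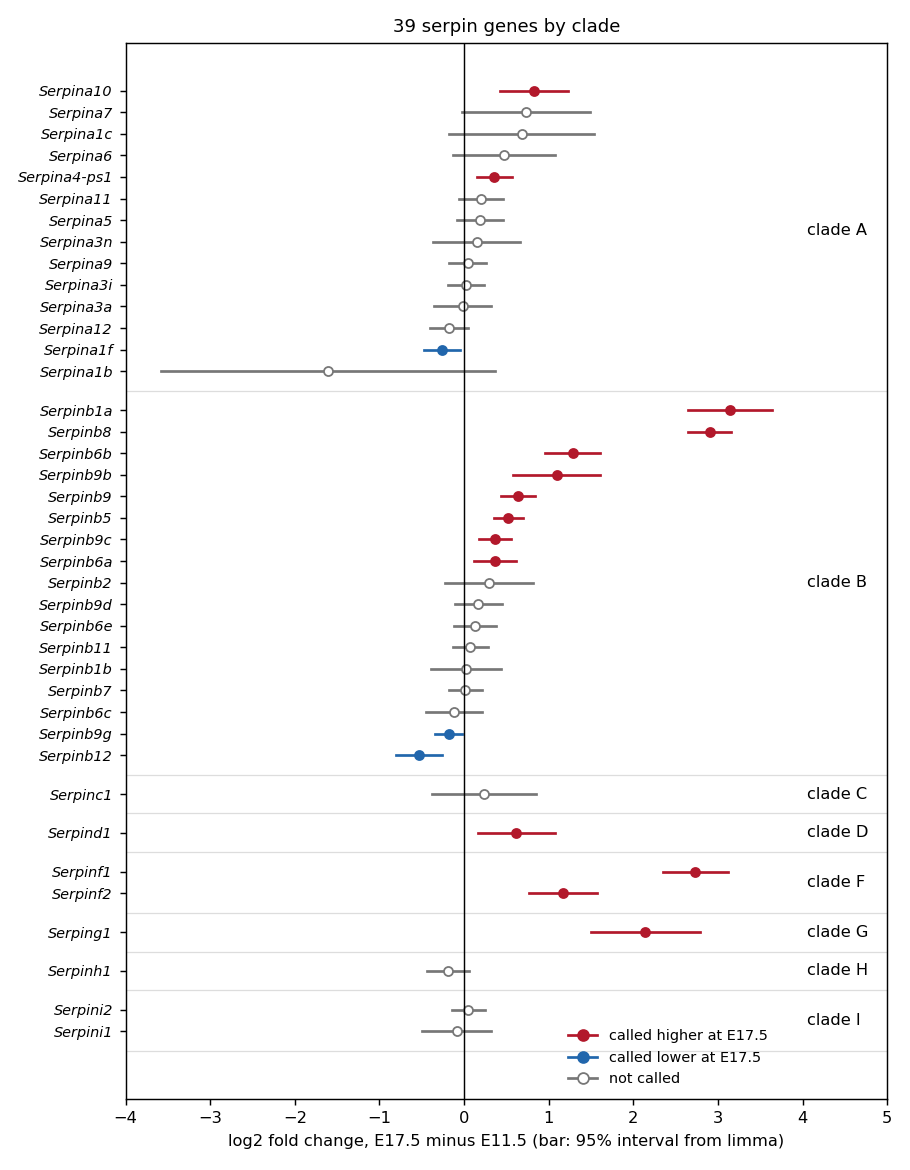
Log2 fold change (E17.5 minus E11.5, limma, 5 arrays per stage) of each serpin gene, grouped by clade and sorted within it, with 95% intervals as bars; filled red points were called higher at E17.5, filled blue points lower, and open grey points were not called. The rises of at least 2-fold lie in clades B, F and G, and *Serpina1b* has the widest interval, from -3.59 to 0.36.

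Clade B, the intracellular serpins, held 8 of the 14 serpins that were higher at E17.5, among its 17 measured members, which is 47.1% beside 36.9% of all genes. *Serpinb1a* and *Serpinb8* led the clade, *Serpinb6b* and *Serpinb9b* followed above 2-fold, and *Serpinb9*, *Serpinb5*, *Serpinb9c* and *Serpinb6a* had smaller differences, that of *Serpinb6a* turning round after quantile normalization. The median log2 fold change of the clade was 0.29. After quantile normalization 6 members were higher and 1 lower, beside 5676 and 6949 of all 17813 genes. After median centring the counts were 6 and 2, beside 5920 and 6576 of all genes.

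*Serpinb1a* is the mouse counterpart of human SERPINB1, an inhibitor of the neutrophil proteases elastase, cathepsin G and proteinase 3. Its log2 signal was 7.56, 7.92, 6.64, 7.10 and 7.80 on the E17.5 arrays and 4.37, 3.88, 4.48, 4.41 and 4.18 on the E11.5 arrays. Every E17.5 array lay above every E11.5 array. The difference was 8.81-fold (log2 fold change 3.14 ± 0.23, SE; adjusted p = 9.1e-08, limma). Of 10 markers of neutrophils and their progenitors 6 were higher and 2 lower at E17.5, and their mean was 6.62 to 7.54 at E17.5, against 4.82 to 5.78 at E11.5, and its part in the *Serpinb1a* difference was not tested.

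*Serpinb8*, whose human counterpart inhibits the proprotein convertase furin, had values that lay close together within each stage. It was measured at 8.08, 8.07, 8.37, 8.06 and 8.21 at E17.5, and at 5.18, 5.50, 5.38, 4.93 and 5.31 at E11.5. The stages did not overlap, and the spread within E17.5 (SD 0.13, n = 5) was small against the difference of 7.47-fold (log2 fold change 2.90 ± 0.12, SE; adjusted p = 3.5e-10, limma). The signal of *Furin* itself, which cuts many secreted precursor proteins, was 1.40-fold higher at E17.5 (adjusted p = 0.001, limma), a call that was lost after quantile normalization (log2 fold change 0.07).

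*Serpinb6b* and *Serpinb6a* belong to the mouse family related to human SERPINB6, an inhibitor of cathepsin G and other trypsin-like and chymotrypsin-like proteases. Both probe sets were bright at both stages. *Serpinb6b* gave 12.87, 12.69, 12.68, 12.72 and 12.76 at E17.5 and 11.72, 11.93, 11.16, 11.27 and 11.20 at E11.5, a difference of 2.44-fold without overlap (adjusted p = 7.1e-06, limma). *Serpinb6a* spanned 11.52 to 11.96 at E17.5, against 11.09 to 11.57 at E11.5, so that the stages overlapped. Its difference of 1.29-fold passed the test as deposited (adjusted p = 0.013, limma), but the direction turned after quantile normalization (log2 fold change -0.17) and the call was lost after median centring. *Serpinb6c* and *Serpinb6e* were dim and were not called, at log2 fold changes of -0.12 and 0.13.

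*Serpinb9* encodes the inhibitor with which cytotoxic lymphocytes and other cells protect themselves from granzyme B. Its log2 signal was 11.07 to 11.43 at E17.5, against 10.42 to 10.68 at E11.5, without overlap, and the difference was 1.55-fold (adjusted p = 4.8e-05, limma). After quantile normalization the difference was 0.05 on the log2 scale and was no longer called. *Serpinb9b*, a close relative, was measured at 7.25, 6.75, 6.14, 5.99 and 6.04 at E17.5 and at 5.68, 5.21, 5.40, 5.35 and 5.06 at E11.5. The lowest E17.5 array lay above the highest E11.5 array, and the difference was 2.14-fold (adjusted p = 0.0012, limma). *Serpinb9c* was higher by 0.37 on the log2 scale from a dim probe set, a call lost after median centring (0.24, adjusted p = 0.057, limma), and *Serpinb9d* was not called (0.17).

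*Serpinb5* encodes maspin, a clade B protein of epithelia that inhibits no known protease through its loop. Its signal stayed low at both stages, with 3.77, 3.65, 3.69, 3.76 and 3.87 at E17.5 and 3.34, 3.26, 3.13, 3.26 and 3.13 at E11.5. The E17.5 arrays lay above the E11.5 arrays, by 1.44-fold (adjusted p = 8.2e-05, limma). *Serpinb2*, the plasminogen activator inhibitor of macrophages and keratinocytes, was dim and not called (log2 fold change 0.29), with 1 E17.5 array at 4.38 and the other four at 2.94 to 3.28. *Serpinb1b*, *Serpinb7* and *Serpinb11* were not called either, with log2 fold changes of 0.02 to 0.07.

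Clade B genes lie in 2 clusters, and the members of both are tandem copies that share sequence and so are not independent of each other. On chromosome 13, 6 of the 11 measured members (54.5%) were higher and 1 (9.09%) was lower at E17.5. On chromosome 1, 2 of 6 (33.3%) were higher and 1 (16.7%) was lower. Over all genes these shares were 36.9% and 31.5%, and the differences in share were not tested. Among the lowest 25% of all genes at both stages were 6 of the 11 members on chromosome 13 and 5 of the 6 on chromosome 1. The first 4 measured members in RefSeq gene order on chromosome 13, *Serpinb1a*, *Serpinb6b*, *Serpinb9* and *Serpinb9b*, were all higher, although with *Serpinb9* not called after quantile normalization. The next 7 are *Serpinb1b*, *Serpinb9c*, *Serpinb9d*, *Serpinb9g*, *Serpinb6e*, *Serpinb6c* and *Serpinb6a*, of which *Serpinb9c* and *Serpinb6a* were called higher with values as deposited, and neither after median centring. On chromosome 1, *Serpinb8* was the only measured member above 2-fold.

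**Figure D2:**
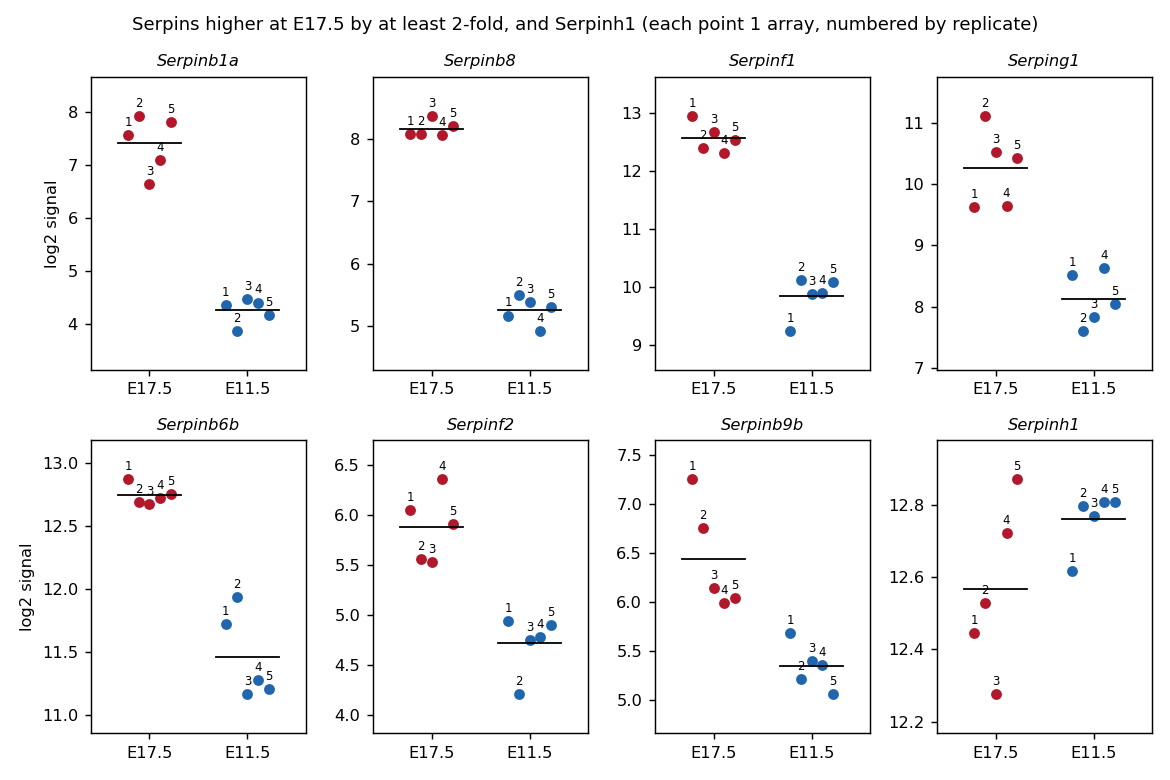
Log2 signal on each array (E17.5 in red on the left, E11.5 in blue on the right, numbered by replicate, line at the mean) for the 7 serpins at least 2-fold higher at E17.5 and for *Serpinh1*; each panel has its own axis. The stages are apart in the first 7 panels and overlap for *Serpinh1*.

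In clades F and G, all 3 measured genes were at least 2-fold higher at E17.5, beside 24.2% of all genes. Clade F had 2 measured genes and clade G had 1, too few to describe a clade. *Serpinf1* encodes pigment epithelium-derived factor (PEDF), a secreted serpin that inhibits no protease and is known to restrain angiogenesis. Its log2 signal was 12.95, 12.40, 12.68, 12.31 and 12.54 at E17.5 and 9.24, 10.12, 9.87, 9.89 and 10.09 at E11.5. The groups were far apart, at 6.65-fold (log2 fold change 2.73 ± 0.18, SE; adjusted p = 2.8e-08, limma), and the probe set was bright at both stages. *Pnpla2*, a lipase that has been described as a PEDF receptor, was 9.41-fold higher at E17.5.

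*Serpinf2*, on chromosome 11 like *Serpinf1*, encodes α2-antiplasmin, the main plasma inhibitor of plasmin. It gave 6.05, 5.56, 5.53, 6.36 and 5.91 at E17.5 and 4.94, 4.20, 4.75, 4.78 and 4.90 at E11.5. The stages did not overlap, and the difference was 2.25-fold (adjusted p = 0.0001, limma). E17.5 replicates 4 and 5 gave 6.36 and 5.91, and replicates 1 to 3 gave 5.53 to 6.05, so that these overlapped. The mean was 6.13 on replicates 4 and 5, against 5.71 on replicates 1 to 3. The part of hepatocyte RNA in these values was not tested.

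*Serping1* encodes C1 inhibitor, which blocks the complement proteases C1r, C1s and MASP and the contact proteases kallikrein and factor XII. Its log2 signal was 9.63, 11.12, 10.52, 9.65 and 10.42 at E17.5 and 8.52, 7.60, 7.83, 8.63 and 8.03 at E11.5. All E17.5 arrays lay above all E11.5 arrays, by 4.42-fold (log2 fold change 2.14 ± 0.30, SE; adjusted p = 3.4e-05, limma). Within E17.5 the 2 lowest arrays were replicates 1 and 4, and within E11.5 these numbers were the 2 highest. The mean over 23 mesenchymal and fibroblast markers (12 higher and 6 lower at E17.5) was likewise lowest on E17.5 replicates 1 and 4 (8.72 and 9.02, with 9.29 to 9.61 on the others) and highest on E11.5 replicates 1 and 4 (8.53 and 8.35, with 7.47 to 7.98 on the others). The mean over 16 endothelial markers was also lowest on E17.5 replicates 1 and 4 (8.90 and 8.54, with 9.37 to 10.43 on the others), but at E11.5 it was highest on replicates 1 and 5 (6.25 and 6.09). The part of these cells in the *Serping1* difference was not tested.

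The proteases that *Serping1* blocks moved in both directions. *C1ra* was 4.99-fold and *C1s1* 2.99-fold higher at E17.5. *C1s1*, at 4.65, 6.36, 6.05, 4.56 and 5.94, was also lowest on E17.5 replicates 1 and 4. *C1ra* was instead lowest on E17.5 replicates 4 and 5 (6.84 and 6.82, with 6.99 to 7.64 on the others). *Masp2*, which starts the lectin pathway, was 6.77-fold lower at E17.5, with 3.93 to 4.92 against 6.23 to 7.73 at E11.5 (adjusted p = 3.6e-06, limma). *Masp1* was 1.51-fold lower, and *Klkb1*, plasma prekallikrein, was 1.40-fold higher. *F12*, the gene of factor XII, was not called (log2 fold change -0.24).

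Clade A, to which most liver-secreted serpins belong, held few calls. Of 14 genes, *Serpina10* and *Serpina4-ps1* were higher and *Serpina1f* was lower at E17.5, and 11 were not called. In 10 of the 14 the signal was among the lowest 25% of all genes at both stages. *Serpina10* encodes the protein Z-dependent inhibitor of factor Xa, and gave 5.36, 4.37, 4.86, 4.63 and 4.73 at E17.5 and 4.14, 4.28, 3.86, 3.95 and 3.58 at E11.5, 1.77-fold higher without overlap (adjusted p = 0.0014, limma). *Serpina4-ps1* was 1.28-fold higher, a call lost after median centring.

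*Serpina1b*, an α1-antitrypsin gene, had the largest difference of the clade and did not pass the test. Its log2 signal was 3.49, 3.72, 3.52, 7.73 and 7.49 on E17.5 replicates 1 to 5 and 7.18, 7.79, 7.31, 6.27 and 5.46 on the E11.5 arrays. The E17.5 arrays fell apart into 3 below every E11.5 array and 2 within the E11.5 range. The log2 fold change was -1.61 (95% interval -3.59 to 0.36; adjusted p = 0.14, limma). It was called lower without E17.5 replicate 4 (-2.25, adjusted p = 0.028, limma), without replicate 5 (-2.19, adjusted p = 0.04, limma) and with E17.5 replicates 1 to 3 alone, a setting chosen after the data were seen (-3.23, adjusted p = 0.0001, limma).

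The same 2 arrays were the highest for 3 other plasma serpins. *Serpina1c* was 4.50 and 4.81 on E17.5 replicates 4 and 5, and 2.66, 2.85 and 2.93 on replicates 1 to 3, against 2.77 to 3.05 at E11.5. *Serpina6*, which encodes the corticosteroid-binding globulin that carries glucocorticoids in the blood, was 5.11 and 4.69 on replicates 4 and 5, and 3.59 to 3.78 on replicates 1 to 3, against 3.47 to 3.95 at E11.5. *Serpinc1*, the gene of antithrombin, was 6.63 and 7.59 on replicates 4 and 5, and 5.97 to 5.98 on replicates 1 to 3, against 5.88 to 6.36 at E11.5. None of the 3 passed the test between stages, with log2 fold changes of 0.68 for *Serpina1c* (interval -0.18 to 1.53), 0.47 for *Serpina6* (-0.13 to 1.07) and 0.23 for *Serpinc1* (-0.38 to 0.85).

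Hepatocyte markers had the same split. *Alb*, the gene of albumin, was 11.16 and 11.90 on E17.5 replicates 4 and 5 and 8.24, 9.34 and 8.65 on replicates 1 to 3, against 4.61 to 6.05 at E11.5. *Afp*, α-fetoprotein, was 9.38 and 9.09 on replicates 4 and 5 and 3.81, 6.20 and 3.45 on replicates 1 to 3, against 6.59 to 7.17 at E11.5. *Fgb*, a fibrinogen chain, was 8.51 and 9.07 on replicates 4 and 5 and 5.23 to 6.20 on replicates 1 to 3, against 4.97 to 5.51 at E11.5. In 14 of 17 hepatocyte markers both replicates 4 and 5 lay above replicates 1 to 3, and in 11 by a mean of at least 1 on the log2 scale. Over all genes these shares were 13.2% and 0.702%, and of the 39 serpins 7 had both arrays above and 4 by at least 1, the 4 given here. The part of hepatocyte RNA in these serpin values was not tested. With E17.5 replicates 1 to 3 alone, 14 serpins were higher and 4 lower, beside 6437 and 5458 of all 17813 genes.

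**Figure D3:**
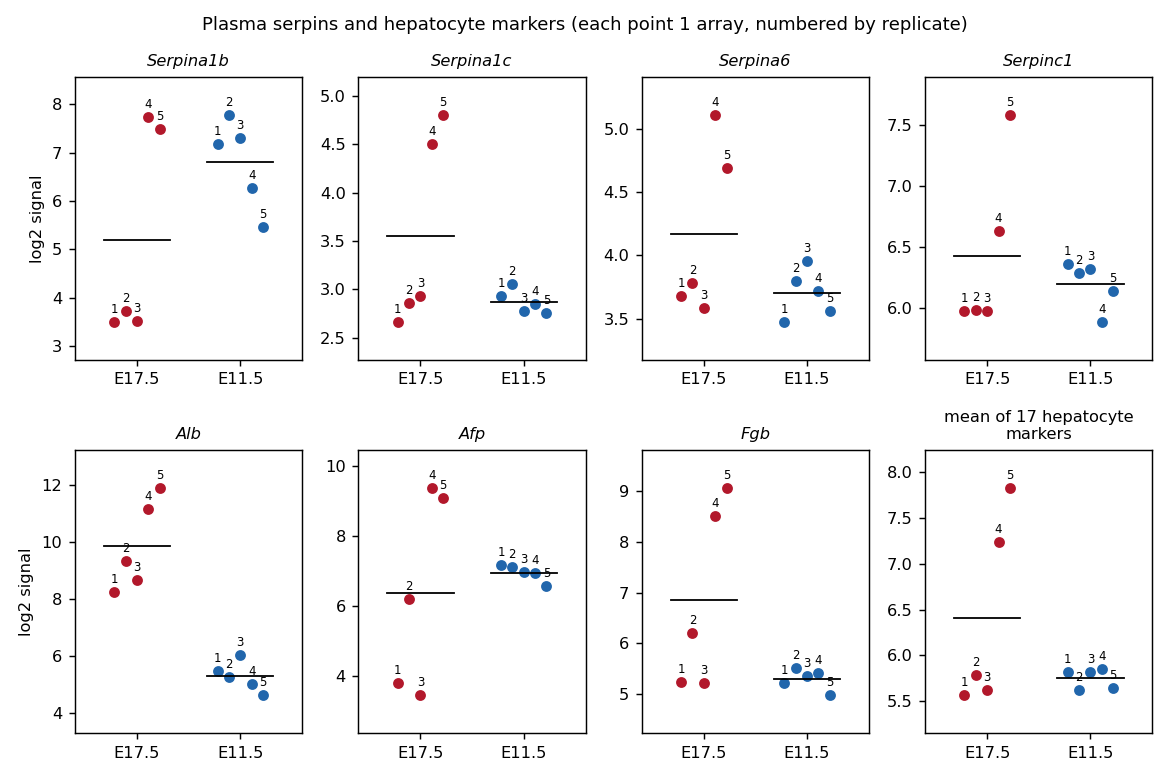
Log2 signal on each array (E17.5 in red on the left, E11.5 in blue on the right, numbered by replicate, line at the mean) of 4 plasma serpins, 3 hepatocyte markers and the mean over 17 hepatocyte markers; each panel has its own axis. In all 8 panels E17.5 replicates 4 and 5 lie above replicates 1 to 3, and on the E11.5 arrays *Serpina1b* is at 5.46 to 7.79.

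*Serpina3n*, an acute-phase serpin related to human antichymotrypsin, was not called, with 3.76, 4.20, 4.90, 3.48 and 3.58 at E17.5 and 3.74, 3.73, 3.76, 4.06 and 3.89 at E11.5. The values overlapped at the dim end of the array, and the interval of the log2 fold change was -0.36 to 0.66. *Serpina7*, thyroxine-binding globulin on the X chromosome, spanned 4.88 to 5.77 at E17.5, against 3.76 to 5.81 at E11.5. It was not called (log2 fold change 0.73, adjusted p = 0.082, limma) unless E11.5 replicate 2 was left out (1.01, adjusted p = 0.0078, limma). *Serpina1f*, dim throughout, gave 3.56, 3.41, 3.40, 3.33 and 3.43 at E17.5 and 3.46, 3.95, 3.65, 3.70 and 3.68 at E11.5. *Serpina3a*, *Serpina3i*, *Serpina5*, *Serpina9*, *Serpina11* and *Serpina12* had log2 fold changes of -0.18 to 0.20 and were not called, except that *Serpina12* was called lower after median centring (-0.31).

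*Serpind1*, on chromosome 16, encodes heparin cofactor II, a thrombin inhibitor. It gave 6.97, 6.35, 5.76, 5.97 and 6.76 at E17.5 and 5.83, 5.57, 5.75, 5.94 and 5.63 at E11.5. E17.5 replicates 3 and 4 lay close to the E11.5 values, and the difference of 1.54-fold (adjusted p = 0.02, limma) was lost without E17.5 replicate 5 and after median centring.

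*Serpinh1* encodes HSP47, a collagen-specific chaperone of the endoplasmic reticulum that inhibits no protease. Its probe set was bright at both stages, at 12.44, 12.53, 12.28, 12.72 and 12.87 at E17.5 and 12.62, 12.80, 12.77, 12.81 and 12.81 at E11.5. The stages overlapped and the gene was not called (log2 fold change -0.19, interval -0.44 to 0.06; adjusted p = 0.15, limma). It was called lower at E17.5 after quantile normalization (-0.62), after median centring (-0.32) and without E17.5 replicate 5 (-0.27). With E17.5 replicates 1 to 3 alone it was called lower too (-0.34), and replicates 4 and 5 lay above these 3. Of 16 genes that modify, fold or cross-link procollagen, 8 were higher and 2 lower at E17.5, beside 36.9% and 31.5% of all genes. *Lox*, a collagen cross-linking oxidase, was 27.9-fold higher, and *Fkbp14*, a folding enzyme, 9.0-fold higher. The 2 lower genes were the prolyl hydroxylases *P4ha1* (log2 fold change -0.71) and *P3h1* (-0.28). *Lox* was lowest on E17.5 replicates 1 and 4 (11.61 and 11.45) and highest on E11.5 replicates 1 and 4 (7.69 and 7.82). The mean over the mesenchymal and fibroblast markers had the same order, whereas *Fkbp14* was lowest on E17.5 replicates 3 and 4 (10.11 and 9.85). The part of mesenchymal cells in these differences was not tested.

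Clade I had no call. *Serpini1*, neuroserpin, an inhibitor of tissue plasminogen activator in the nervous system, was measured at 5.21, 5.51, 5.26, 5.74 and 6.29 at E17.5 and at 5.95, 5.67, 5.59, 5.60 and 5.63 at E11.5. E17.5 values lay on both sides of the E11.5 values, and the log2 fold change was -0.09 (interval -0.49 to 0.32). With E17.5 replicates 1 to 3 alone it was called lower (-0.36, adjusted p = 0.021, limma). *Serpini2* was dim and not called (0.05).

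The proteases that serpins control and the partners they act with were read from lists by role, whose counts stand beside 36.9% of all genes higher and 31.5% lower at E17.5. In the 11 granule proteases of leukocytes, 6 were higher and 2 lower at E17.5. The targets known for SERPINB1 did not rise with *Serpinb1a*. *Elane*, neutrophil elastase, was 3.76 to 4.32 at E17.5, against 3.80 to 4.43 at E11.5, and was not called, *Ctsg*, cathepsin G, was not called either (log2 fold change 0.09), and *Prtn3*, proteinase 3, was 4.63-fold lower at E17.5, with 5.52 to 6.55 against 7.63 to 8.68 at E11.5. *Gzmb*, granzyme B, which *Serpinb9* inhibits, was 8.59-fold higher, *Gzma*, granzyme A of cytotoxic cells, 80.1-fold, and *Cma1*, a mast cell chymase, 41.8-fold. T and NK cell markers and mast cell markers were higher too, as given above, and their part in these rises was not tested.

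In the 16 proteases of blood and of plasminogen activation, 7 were higher and 4 lower. *Plat*, tissue plasminogen activator, was 2.57-fold lower at E17.5, with 5.80 to 6.99 against 7.56 to 8.20 at E11.5 (adjusted p = 0.0001, limma). In the 15 epithelial and secretory-route proteases, 9 were higher and 2 lower, among them *Htra3*, a secreted serine protease, 18.4-fold higher, the membrane protease *Tmprss4* 5.82-fold higher and the airway tryptase-like protease *Prss22* 8.60-fold lower at E17.5. The 7 cysteine proteases, some of which human clade B serpins inhibit, held 6 higher and no lower gene. *Ctsh*, cathepsin H, which processes surfactant proteins in alveolar type 2 cells, was 14.05 to 14.21 at E17.5, against 6.85 to 7.38 at E11.5 (128-fold), and *Ctsb*, cathepsin B, was 26.9-fold higher.

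Of 12 cofactors and clearance receptors, 9 were higher and 2 lower at E17.5. *Vldlr*, a receptor that takes up serpin-protease complexes, was 13-fold higher, *Plaur*, the urokinase receptor, was 12.9-fold higher, and *Lrp1*, another clearance receptor for such complexes, was 3.16-fold lower. Of 37 other serine and cysteine protease inhibitors, 21 were higher and 7 lower at E17.5, which is 56.8% and 18.9%, beside 36.9% and 31.5% of all genes. The serpins had 35.9% and 7.69%, and the difference in share was not tested. At both stages 9 of these 37 inhibitors and 22 of the 39 serpins were among the lowest 25% of all genes. *Stfa3*, a stefin of myeloid cells, was 80.1-fold higher, and *Spink5*, a Kazal-type inhibitor of kallikreins in epithelia, 24.3-fold higher. *Tfpi2*, a Kunitz-type inhibitor, was 5.02-fold lower, and *Itih2*, an inter-α-trypsin inhibitor heavy chain, 5.01-fold lower. The part of macrophages, whose markers were higher at E17.5, in the rises of *Ctsb*, *Plaur* and *Stfa3* was not tested. Neither was that of neutrophils and their progenitors in the rise of *Stfa3*. Of 10 markers of these cells 6 were higher and 2 lower, and their E11.5 mean was highest on replicate 5, as was *Stfa3*.

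**Figure D4:**
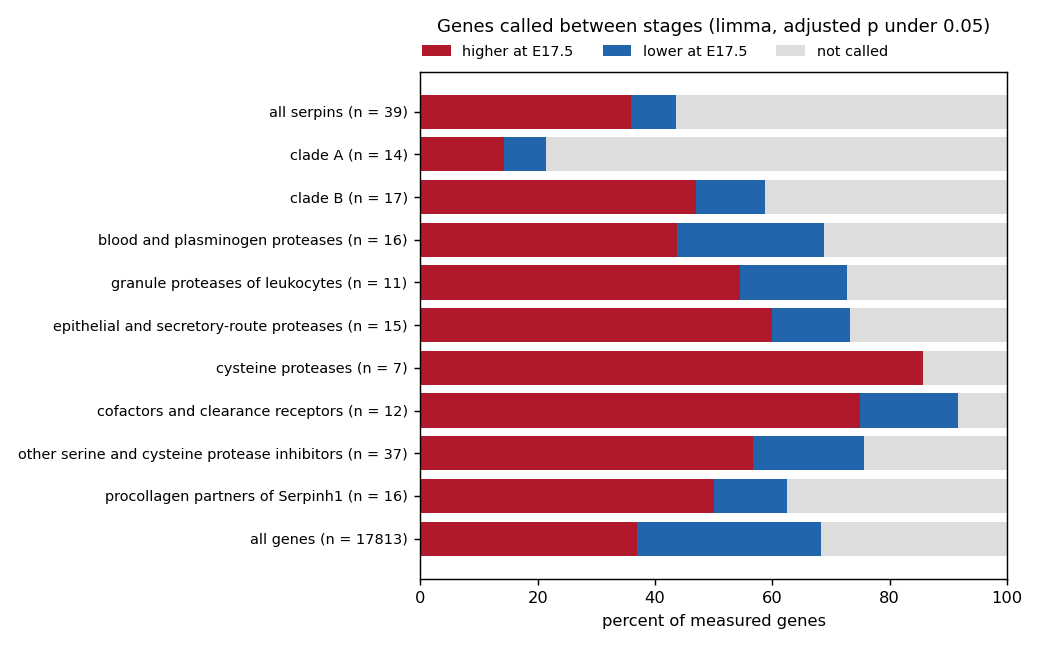
Percent of the measured genes of each list that were called higher (red) or lower (blue) at E17.5 or not called (grey; limma, adjusted p under 0.05), for the serpins, their 2 large clades, protease and partner lists and all genes, with the number of genes in brackets. Clade A has the smallest share of called genes of these groups (2 higher and 1 lower of 14).

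The study tested glucocorticoid and STAT3 signals elsewhere, and so their motifs were looked for on both strands in the 250 bases upstream of the start sites. A window was found for 33 of the 39 serpins. These had 39 windows, so that some serpins had more than 1, and the counts that follow are of windows. The STAT motif TTCNNNGAA was in 7.02% of 32851 windows of all genes and in 2 of 12 windows of serpins higher at E17.5 (*Serpinb9c* and *Serpinb6a*). It was in 1 of 4 windows of serpins lower and in 4 of 23 windows of serpins not called. The glucocorticoid receptor motif ACANNNTGT was in 5.84% of all windows, in 1 of 12 (*Serpinb8*, at base -17), in 1 of 4 and in 4 of 23 of the same groups. The C/EBP motif was in 9.56% of all windows, in 0 of 12, in 2 of 4 and in 7 of 23. The HNF1 element, a motif chosen after the values were seen, was in 6.43% of all windows, in 1 of 12 (*Serpinb8*), in 0 of 4 and in 5 of 23. Such short motifs can overlap one another, and no count here was tested.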

How the data were processed

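RNA of 10 samples was amplified and labelled with NuGEN kits by the authors, hybridised to Affymetrix mouse arrays and analysed with Bioconductor. The deposited values are log2 signals of 21204 probe sets (2.472 to 15.03). The sources used here do not say how background was corrected, how arrays were normalized or how probe sets were chosen. These steps can shift differences between the stages. The upper quartile over probe sets was higher at E17.5 (9.996 to 10.04 per array) than at E11.5 (9.417 to 9.457). Quantile normalization lowered the log2 fold changes of the 7 serpins at least 2-fold higher, except *Serpinf2* (1.17 to 1.19). *Serping1* fell from 2.14 to 1.65 and *Serpinf1* from 2.73 to 2.21. All 7 stayed called. By the platform annotation 17981 probe sets name 1 gene, 514 several and 2709 none, and only the first were used, with the brightest per gene (17813 genes). All 39 serpins were found in RefSeq (GRCm38.p6), which gave chromosomes, gene order and upstream windows.

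Stages were compared as E17.5 minus E11.5 in R 4.3.3 with limma 3.58.1 (lmFit, eBayes), adjusted over 17813 genes. Folds are 2 to the power of the log2 difference. The script was tested on simulated data. Figures were drawn with matplotlib 3.10.9 in Python 3.11.15. The lowest 25% of all genes serves only to mark dim probe sets. The number of arrays limits the precision.

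All serpins are named. Values on every array are given for members at least 2-fold apart without overlap, the largest change of each clade, and *Serpinh1*, *Serpinf1*, *Serping1*, *Serpina1* genes, *Serpina3n* and *Serpinb5*. In other lists up to 3 genes per direction are named, and members that small counts need. *Furin*, *Klkb1*, *Masp1*, *F12*, *Gzmb*, *Pnpla2*, *Alb*, *Afp* and *Fgb* were chosen after their values were seen. Members and lists were chosen with earlier results of these data known. The fit was repeated after median centring and after quantile normalization, with the lowest or the mean of a gene's probe sets, without probe sets of suffix _x, _s or _a, without dim genes, with array weights, with a replicate block, with trend and robust moderation, against a 2-fold change, without each array, and with E17.5 replicates 1 to 3 alone, the last chosen after seeing the data.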

Additional observations from a re-analysis of the deposited data

Results flagged for a closer look

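For each serpin and each other gene named except *F12*, the 5 arrays of a stage were searched for an outlying array. The rule was a gap to the nearest neighbour of over 0.71 of the range of the stage. This was met in 9 of 78 groups of serpin values, where chance gives about 3.9. At E17.5 *Serpinb2* was 4.38 on replicate 3, with the next array at 3.28. At E11.5 replicate 1 was apart for *Serpinf1* (9.24, next 9.87), *Serpinh1* (12.62, next 12.77) and *Serpini1* (5.95, next 5.67). E11.5 replicate 2 was apart for *Serpinf2* (4.20, next 4.75), and replicate 3 for *Serpinb9c* (3.79, next 3.56) and *Serpinb6c* (4.94, next 4.35). E11.5 replicate 5 was apart for *Serpinb9* (10.42, next 10.62) and *Serpini2* (3.23, next 3.40). Of the other genes named, *Masp1* was 5.46 on E11.5 replicate 1 (next 4.86), *Stfa3* 5.09 on E11.5 replicate 5 (next 3.60), *Tfpi2* 8.16 on E11.5 replicate 2 (next 8.46) and *P3h1* 8.21 on E17.5 replicate 5 (next 8.0). The 2 arrays that stood apart for *Serpina1b*, *Serpina1c*, *Serpina6* and *Serpinc1* at E17.5 are a pair, which this search for a single array does not find.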

How the results depend on the processing

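As deposited, 14 serpins were higher and 3 lower at E17.5. The number higher was 5 without dim genes, where 6 serpins were left, and 4 in a test against 2-fold (*Serpinb1a*, *Serpinb8*, *Serpinf1* and *Serping1*). The number lower was 5 after median centring, 0 without dim genes, 1 with the replicate number as a block and 0 against 2-fold. Of all 17813 genes, 3437 were higher and 2045 lower in the test against 2-fold. With the block 6385 of all genes were higher and 5349 lower. Leaving out each array in turn gave 13 to 15 higher and 1 to 3 lower. Without the 9 probe sets of suffix _x, _s or _a, 10 of 30 were higher and 3 lower. With trend and robust moderation and the other choices of probe set, the counts were 14 and 3, and with array weights 14 and 2. The 1 reversed direction was that of *Serpinb6a* after quantile normalization (-0.17). The replicate block took away the calls of *Serpina1f* and *Serpinb9g* alone. Same-numbered arrays did not deviate together (r from -0.29 to 0.07, against -0.22 to 0.23 for other pairs). The labels name no pairing, and such correlations over all genes cannot show whether arrays shared a batch. The causes of these changes were not tested.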

Other observations

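Outside the 39 members, 2 probe sets name several α1-antitrypsin genes. The one of *Serpina1d* and *Serpina1a* gave log2 signals of 3.05, 3.27, 2.86, 5.22 and 5.71 at E17.5 and 5.38, 6.16, 4.97, 3.65 and 4.02 at E11.5. E17.5 replicates 4 and 5 were its highest at that stage, and E11.5 replicates 1 to 3 were above replicates 4 and 5, as for *Serpina1b*. The one of *Serpina1e*, *Serpina1c* and *Serpina1b* gave 4.00, 3.85, 4.09, 4.23 and 4.58 at E17.5 and 4.16, 4.67, 3.98, 3.97 and 3.82 at E11.5, and its stages overlapped. E17.5 replicates 4 and 5 were its highest at that stage too, but its log2 fold change was 0.03. It thus did not repeat the fall of the *Serpina1b* probe set (-1.61). Because these genes are near-identical, the probe sets that name only *Serpina1b* or *Serpina1c* may also read other copies.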
